A study of Drosophila melanogaster with 18 samples.

Results

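The genes described here encode 8 enzymes of acetyl-CoA supply and fatty acid synthesis in *Drosophila melanogaster*, read here in the larval fat body. They are ATP citrate lyase (*ATPCL*), acetyl-CoA synthetase (*AcCoAS*), acetyl-CoA carboxylase (*ACC*), the fatty acid synthases *FASN1*, *FASN2* and *FASN3*, the desaturase *Desat1* and the elongase *Baldspot*. They were chosen by their function from the 16438 genes of the count table, by a rule that uses no measured value but was set with earlier results of these data known, and all 8 were among the 12460 genes that averaged at least 15 counts per library. RNA-seq libraries had been made from fat bodies of female larvae and prepupae of 2 populations, Dutch (NL) and Zambian (ZI). Both were sampled at the early and at the late wandering stage of the last larval instar, and again as white prepupae, and 3 libraries per population and stage gave 18 in all. Each library was a pool over isofemale strains, 12 for the Dutch and 10 for the Zambian population, and no treatment or engineered allele was labelled. The larvae had been grown at a controlled density on food with a blue dye, and the colour of the gut separated early from late larvae. The 3 libraries of a group pooled the same strains, so p-values measure the spread between pools and not the spread between strains.

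In insects the fat body combines the roles of liver and adipose tissue, and in the feeding larva it turns dietary sugar into triglyceride that is spent during metamorphosis. Citrate exported from mitochondria is split by ATP citrate lyase into acetyl-CoA, and acetyl-CoA synthetase makes the same compound from free acetate. Acetyl-CoA carboxylase converts acetyl-CoA to malonyl-CoA, the committed step, and fatty acid synthase joins malonyl units into a saturated chain at the expense of NADPH. Elongases such as *Baldspot* lengthen the chain, and desaturases such as *Desat1* introduce a double bond. In the fly *FASN1* is the synthase gene known for the fat body, while *FASN2* and *FASN3* are known from oenocytes, the epidermal cells that make cuticular hydrocarbons and other very long chain lipids.

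The total count ranged over 30029493 to 33687433 for the 3 early Dutch libraries, 22926726 to 28515174 for the late ones and 14998610 to 30328600 for the prepupal ones. For Zambian libraries the ranges were 29527977 to 37250385 early, 30714013 to 36029384 late and 17830666 to 32532383 in prepupae. At this depth a library held 56 to 1496 counts of *FASN3*, the member with the fewest, and 3407 to 98422 counts of *FASN1*. The tissue label was checked with 7 genes for larval serum proteins and other fat body products, which were detected in every library. Levels in CPM are counts scaled to the library total multiplied by its TMM factor, so a sum in CPM is not a share of all counts. The 7 genes summed to 517401 to 581651 CPM in early Dutch and 492966 to 566599 CPM in early Zambian libraries. The TMM factors were 0.742 to 0.858 in early Dutch and 0.811 to 0.915 in early Zambian libraries. Receptors of smell and taste, which are foreign to the fat body, stood apart at the late stage, with a sum over 179 genes of 195 to 208 CPM in Dutch and 100.1 to 137 CPM in Zambian libraries.

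The members lie at separate places in the genome except for one pair of neighbours. In the release 6 assembly (BDGP6), *ATPCL* spans 2R:15993531-16001290 and *ACC* 2R:7974115-7991862, both on the minus strand. *AcCoAS* spans 3L:21270722-21280243, *Baldspot* 3L:16648442-16661615 and *FASN3* 3L:25752859-25762779, all on the minus strand, and *Desat1* spans 3R:12439600-12447616 on the plus strand. *FASN2*, at 2L:3043947-3056143, ends 454 bases before the start of *FASN1*, at 2L:3056598-3068177, on the same strand. The synthase genes are paralogs, and a division of reads between them was not tested. Exons of *ATPCL* share 177 bases with *CG8320* and 103 bases with *Tmem131* on the other strand, and since no source used here states whether the counting used the strand, reads from these stretches cannot be told apart.

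Per unit of gene length, *Desat1* had the highest mean among the members in all 6 groups and *FASN2* and *FASN3* the lowest. The range of *Desat1* overlapped that of *AcCoAS* in late Zambian larvae and in Dutch prepupae. On the TPM scale, where counts are divided by gene length and then scaled to library size, *Desat1* averaged 706 ± 35.7 in early Dutch and 479 ± 94.1 in early Zambian libraries (SD, n = 3 each). *FASN1* had 484 ± 34.7 TPM in Dutch and 271 ± 60.5 TPM in Zambian libraries of this stage, and *AcCoAS* had 363 ± 1.59 TPM in Dutch and 261 ± 20.3 TPM in Zambian libraries. *FASN1* stood above *AcCoAS* in early Dutch larvae, whereas in early Zambian larvae the ranges of these genes overlapped. They were followed by *ATPCL*, at 232 ± 33.4 TPM in Dutch and 127 ± 9.40 TPM in Zambian libraries. *Baldspot* and *ACC* came next and were not separated by their spread at this stage in either population: *Baldspot* had 85.4 ± 3.47 TPM in Dutch and 52.1 ± 11 TPM in Zambian libraries, and *ACC* 83.9 ± 10.1 TPM in Dutch and 47.6 ± 13.2 TPM in Zambian libraries.

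*AcCoAS* stood above *FASN1* at the late stage, with library ranges that did not overlap, at 117 ± 6.72 against 84.8 ± 11.9 TPM in Dutch and at 124 ± 3.87 against 49.2 ± 9.26 TPM in Zambian libraries, and it remained above it in prepupae. *Baldspot* had fallen least among the abundant members and reached the level of *FASN1* in Dutch prepupae, with 64.1 ± 1.09 against 64.7 ± 6.85 TPM. *FASN2* stayed between 1.99 and 7.11 TPM on average in all groups. *FASN3* had the lowest mean in 5 groups, although its range overlapped that of *FASN2* in early Zambian larvae. It stood above *FASN2* in Zambian prepupae alone, with 6.64 ± 2.10 against 2.67 ± 0.939 TPM. As a share of all counts, the 8 genes together held 0.584 to 0.630% in Dutch and 0.294 to 0.416% in Zambian early larvae. The share was 0.144 to 0.171% in Dutch and 0.0930 to 0.113% in Zambian late larvae, and among prepupae 0.115 to 0.138% in Dutch and 0.0852 to 0.0936% in Zambian libraries.

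**Figure D1:**
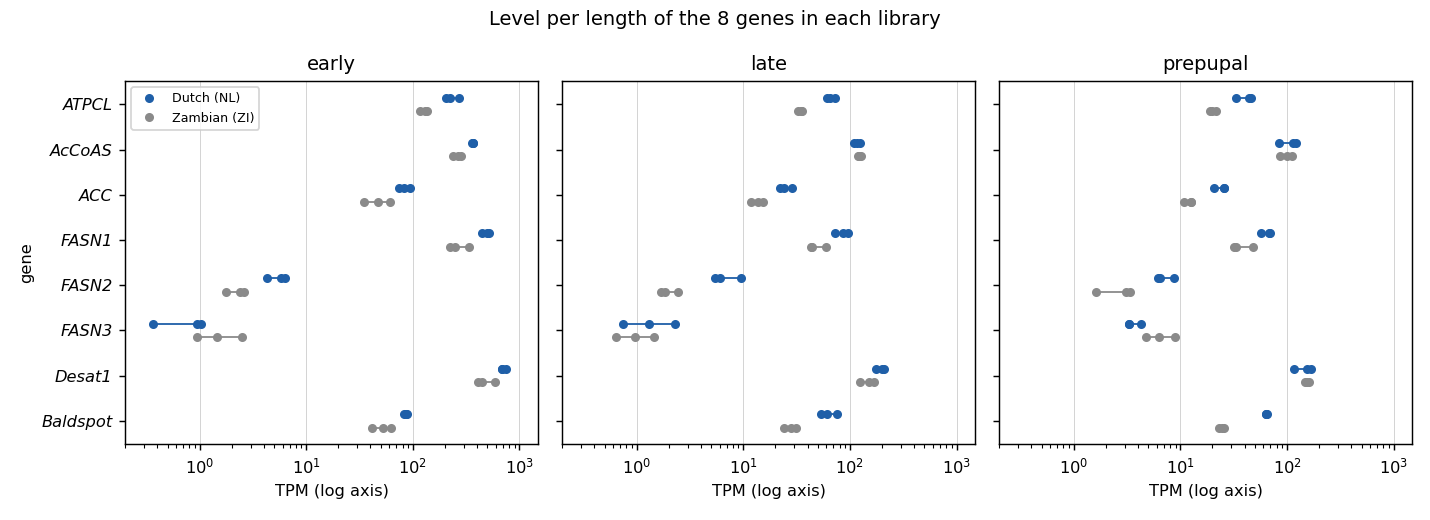
Level of each of the 8 genes per unit of length, in TPM on a log axis, with 1 panel per stage and 1 point per library (blue, Dutch; grey, Zambian; lines join the lowest and highest of 3 libraries). *Desat1* had the highest mean in every group, and *FASN2* and *FASN3* lay below 10 TPM throughout.

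The first comparison asked how the populations differed at each stage. Changes were taken from a fit of all 12460 genes and are given as log2 fold changes with their standard error, where a positive value means higher in the Dutch population, and genes with an adjusted p under 0.05 over all genes were called. Among early larvae, 7 of the 8 genes stood higher in the Dutch libraries and none lower, where 4.53% of all genes were called higher in the Dutch population. The median log2 difference was 0.99 over the 8 genes and 0.03 over all genes. At the late stage 4 of 8 were called, all higher in the Dutch population, against a background of 13.7%, and among prepupae again 4 of 8, against 2.66%. The background at the late stage depended on the scaling of the libraries: 1709 genes were higher and 1752 lower in the Dutch population as analysed here, and 2441 were higher and 885 lower with upper-quartile scaling. It also depended on single libraries, with 822 genes higher without Dutch late replicate 2, 811 without Zambian late replicate 2 and 816 without Zambian late replicate 3. *ATPCL*, *ACC*, *FASN2* and *Baldspot* were called at each of the 3 stages, *FASN1*, *Desat1* and *AcCoAS* at the early stage, and *FASN3* at none. In pooled tissue, fewer cells of a type and less RNA per cell cannot be told apart.

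Both genes for the supply of acetyl-CoA were higher in early Dutch larvae, and *ATPCL* alone was called at the later stages. *ATPCL* had 982, 803 and 734 CPM in early Dutch libraries, against 405, 390.3 and 392 CPM in early Zambian libraries. The lowest Dutch library thus lay well above the highest Zambian one, and the log2 difference was 1.09 ± 0.17 (adjusted p = 0.000198). At the late stage the gene had 221, 154 and 142 CPM in Dutch and 90.0, 114 and 98.0 CPM in Zambian libraries (0.77 ± 0.17, adjusted p = 0.00313), and in prepupae 88.7, 127 and 95.5 CPM in Dutch and 56.2, 47.7 and 50.7 CPM in Zambian libraries (1.01 ± 0.17, adjusted p = 0.000699). The groups did not overlap at any stage, where libraries apart with the Dutch ones higher were seen for 14.9% of all genes in early larvae, 19.3% in late larvae and 9.33% in prepupae. The part that the genes on the other strand have in these counts was not tested.

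*AcCoAS* had 1108, 1185 and 1001 CPM in early Dutch libraries, against 701, 661 and 672 CPM in early Zambian libraries. The groups did not overlap and the log2 difference was 0.70 ± 0.15 (adjusted p = 0.00504), the smallest among the 7 genes called at this stage. Late larvae had 311, 230.1 and 214 CPM in the Dutch and 261, 344 and 309.9 CPM in the Zambian population, with overlapping libraries and a difference of -0.28 ± 0.15 (adjusted p = 0.168). Without Dutch replicate 1, the highest of the 3 late Dutch libraries, this difference was -0.37 and passed the threshold (adjusted p = 0.0379). In prepupae the gene had 188, 259.6 and 219 CPM in Dutch and 204, 210.0 and 219 CPM in Zambian libraries, and the Zambian libraries lay inside the Dutch range.

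*ACC*, the gene of the committed step, was about 1.61 to 2.06 times as high in the Dutch population at the 3 stages. Early libraries had 666, 563 and 529 CPM in the Dutch and 355, 272 and 227 CPM in the Zambian population (1.04 ± 0.16, adjusted p = 0.00021). Late libraries had 139.5, 132 and 100.2 CPM in the Dutch and 77.3, 85.4 and 68.7 CPM in the Zambian population (0.68 ± 0.16, adjusted p = 0.00582). Prepupal libraries had 108, 135 and 107 CPM in the Dutch and 58.9, 61.3 and 57.8 CPM in the Zambian population (0.98 ± 0.17, adjusted p = 0.000636). Every Dutch library stood above every Zambian library of its stage.

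**Figure D2:**
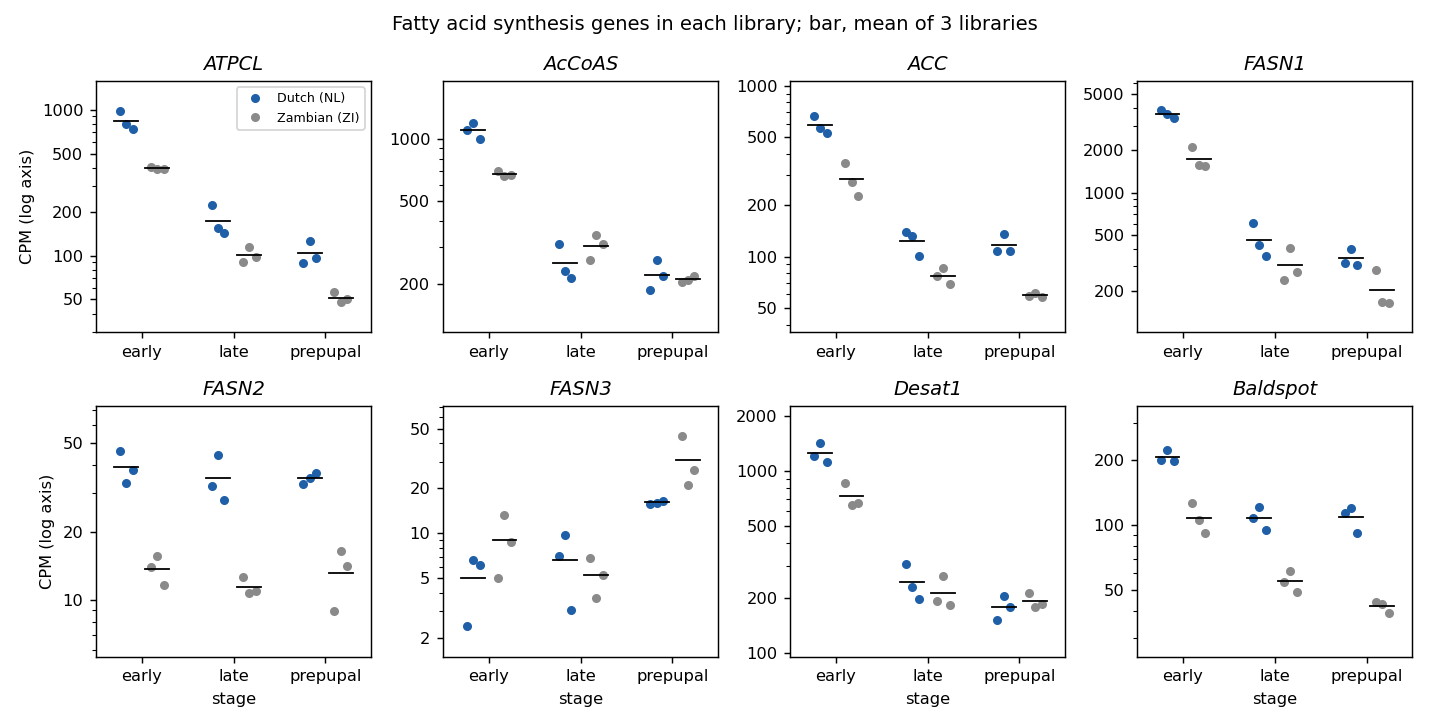
TMM-normalized CPM of each gene in each library on log axes, by stage, with Dutch libraries (blue) left of Zambian libraries (grey) and a bar at the mean of 3 libraries. *ATPCL*, *ACC*, *FASN2* and *Baldspot* show no overlap between the populations at any stage, whereas *AcCoAS* and *Desat1* overlap at the late and prepupal stages.

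Of the 3 synthase genes, *FASN2* was called at each stage, *FASN1* in early larvae and *FASN3* at none. *FASN1*, the most abundant, had 3890, 3625 and 3407 CPM in early Dutch libraries, against 2111, 1574 and 1556 CPM in early Zambian libraries, a log2 difference of 1.06 ± 0.23 (adjusted p = 0.00542). Late larvae had 607, 422 and 353 CPM in the Dutch and 241, 403 and 273 CPM in the Zambian population, where Zambian replicate 2 reached into the Dutch range. This difference of 0.59 ± 0.23 did not pass (adjusted p = 0.0617), and it did without that library (0.84, adjusted p = 0.0276). On the TPM scale the late libraries did not overlap, at 72.6 to 96.4 in Dutch and 43.3 to 59.8 in Zambian larvae. TPM does not use the TMM factors, which were larger on average in late Dutch libraries. The share of all genes apart on that scale was not taken. Prepupae had 318, 397 and 305 CPM in the Dutch and 282, 167 and 163 CPM in the Zambian population. The prepupal libraries did not overlap, Zambian replicate 1 lay closest to the Dutch ones, and the difference of 0.74 ± 0.23 did not pass (adjusted p = 0.0836), whereas it passed without that library (1.04, adjusted p = 0.0138).

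*FASN2* had the largest log2 difference between the populations among the members at every stage, at a low level, although in prepupae it was within its standard error of that of *Baldspot*. It had 45.8, 33.2 and 37.9 CPM in early Dutch and 14.0, 15.6 and 11.6 CPM in early Zambian libraries (1.5 ± 0.20, adjusted p = 2.54e-05). Late libraries had 32.1, 44.2 and 27.9 CPM in the Dutch and 12.6, 10.7 and 10.9 CPM in the Zambian population (1.61 ± 0.20, adjusted p = 1.39e-05). Prepupal libraries had 32.7, 35.0 and 36.9 CPM in the Dutch and 8.92, 16.5 and 14.2 CPM in the Zambian population (1.41 ± 0.20, adjusted p = 8.91e-05). The Dutch level was 2.65 to 3.04 times the Zambian one and no libraries overlapped.

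*FASN3* was not called between the populations. It had 2.39, 6.60 and 6.16 CPM in early Dutch and 5.05, 13.3 and 8.72 CPM in early Zambian libraries (-0.83 ± 0.40, adjusted p = 0.249), with overlap. Late libraries had 7.03, 9.79 and 3.08 CPM in the Dutch and 6.82, 3.68 and 5.24 CPM in the Zambian population, also with overlap and with a difference of the other sign (0.34 ± 0.40, adjusted p = 0.523). Prepupal libraries had 15.7, 16.1 and 16.6 CPM in the Dutch and 44.8, 21.0 and 26.6 CPM in the Zambian population. All 3 Dutch values were lower, as they were for 10.2% of all genes in prepupae, but the Zambian spread was wide and the difference of -0.94 ± 0.37 did not pass (adjusted p = 0.205). A fit of the prepupal libraries alone called it (-0.93, adjusted p = 0.00763).

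Because *FASN2* and *FASN3* are known from oenocytes, the 4 oenocyte markers were read beside them. Their summed level was 84.8 to 92.9 CPM in early Dutch and 63.7 to 81.0 CPM in early Zambian libraries, 40.5 to 63.2 CPM in Dutch and 44.2 to 50.3 CPM in Zambian late libraries, and 44.0 to 48.6 CPM in Dutch and 42.5 to 51.4 CPM in Zambian prepupae. None of the 4 was at 0 in all libraries of a group, although *CG18609* stayed at or below 0.498 CPM. The single markers did not move as one. At the early stage *spidey*, the most abundant of them, was higher in the Dutch population as *FASN2* was, with 65.8 to 74.9 CPM in Dutch and 38.2 to 46.3 CPM in Zambian libraries. The fatty acyl-CoA reductase gene *FarO* had 12.0 to 15.7 CPM in Dutch and 18.7 to 19.6 CPM in Zambian libraries of that stage. The cytochrome P450 gene *Cyp4g1* had 2.47 to 6.68 CPM in Dutch and 5.38 to 15.4 CPM in Zambian early libraries. In Zambian animals it had 7.70 to 8.95 CPM in prepupae against 2.26 to 3.16 CPM in late larvae, the direction of *FASN3*. Its Dutch ranges overlapped, with 5.21 to 6.52 CPM in prepupae against 2.84 to 6.02 CPM in late larvae. In Zambian animals *FarO* had 12.9 to 17.3 CPM in prepupae against 16.8 to 21.6 CPM in late larvae, and *spidey* 18.4 to 26.7 CPM in prepupae against 23.3 to 26.8 CPM in late larvae. The part of oenocyte RNA in the counts of *FASN2* and *FASN3* was not tested.

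The genes that modify the finished chain split in the same way as the genes of acetyl-CoA supply. *Desat1* had 1211, 1423 and 1113 CPM in early Dutch libraries, against 854, 651 and 667 CPM in early Zambian libraries (0.79 ± 0.18, adjusted p = 0.0076). Later the groups overlapped in CPM, with 309, 229.6 and 198 CPM in Dutch and 193, 265 and 183 CPM in Zambian late larvae (0.20 ± 0.18, adjusted p = 0.401). On the TPM scale the late libraries did not overlap, at 174 to 210 in Dutch and 124 to 168 in Zambian larvae. The TMM factors, 0.988 to 1.27 in late Dutch and 0.877 to 1.08 in late Zambian libraries, do not enter TPM. Late Dutch values of all genes are thus higher in TPM relative to CPM, and the share of all genes apart in TPM was not taken. Prepupae had 152, 206 and 178 CPM in the Dutch and 213, 179 and 185 CPM in the Zambian population (-0.11 ± 0.18, adjusted p = 0.923). The early difference was the one called for this gene. With upper-quartile scaling, which shifted the median of all genes by 0.21 at the late stage, its late difference was 0.41 and was called (adjusted p = 0.041).

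*Baldspot* was called at each stage. It had 201, 225 and 198 CPM in early Dutch and 127, 106 and 92.3 CPM in early Zambian libraries (0.94 ± 0.14, adjusted p = 0.000129). Late libraries had 108, 121 and 94.9 CPM in the Dutch and 54.4, 61.2 and 48.8 CPM in the Zambian population (0.98 ± 0.14, adjusted p = 8.18e-05). In prepupae it had 114, 121 and 92.3 CPM in Dutch and 43.9, 42.9 and 39.2 CPM in Zambian libraries, a log2 difference of 1.38 ± 0.14 (adjusted p = 3.43e-06). No Dutch library overlapped the Zambian libraries of its stage.

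**Figure D3:**
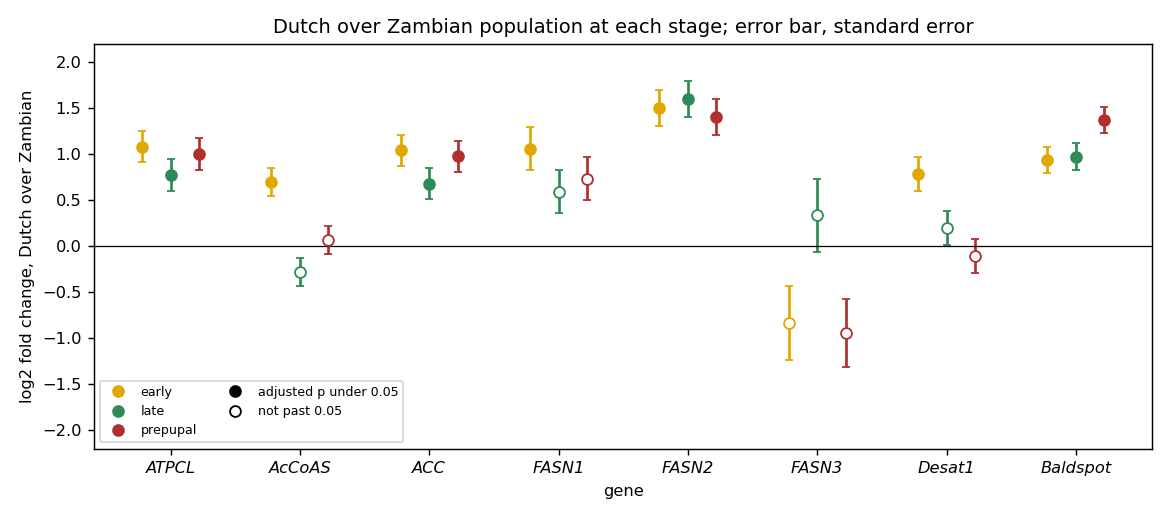
Log2 fold change of Dutch over Zambian libraries for each gene at the early (yellow), late (green) and prepupal (red) stage, with standard errors; filled points passed an adjusted p of 0.05. The early values of 7 genes lie between 0.70 and 1.5, and 4 genes have filled points at all 3 stages.

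These calls were compared with the processing of the counts. The 7 early calls held under 9 other settings and in 18 fits that each left out 1 library. At the late stage 4 to 6 members were called, and in prepupae 4 to 6, and the additional genes were *FASN1*, *Desat1*, *AcCoAS* and *FASN3*. These did not share a direction. *FASN1* was higher in the Dutch population where it was called, as was *Desat1* at the late stage. *AcCoAS* was lower there where it was called at the late stage, and *FASN3* where it was called in prepupae. The counts used here come from mapping all reads to the FlyBase transcriptome. The study examined mapping bias with a Zambian reference as well, and those values were not used here.

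The second comparison followed each population through development. From the early to the late stage, 6 of the 8 genes fell in Dutch larvae, where 23.2% of all genes were called lower, and the same 6 fell in Zambian larvae, where 17% were. They were *FASN1*, *Desat1*, *ATPCL*, *ACC*, *AcCoAS* and *Baldspot*. *FASN2* and *FASN3* were not called in either population. The median log2 change of the 8 genes was -2.18 in Dutch and -1.45 in Zambian larvae, while the median of all genes was 0.14 and -0.11.

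*FASN1* changed most. It averaged 461 ± 132 CPM in late Dutch larvae, against 3640 ± 242 CPM in early Dutch larvae (SD, n = 3 each), which is 7.90-fold lower (log2 change -2.98 ± 0.25, adjusted p = 2.01e-08). In Zambian larvae it averaged 305 ± 85.8 CPM late, against 1747 ± 315 CPM early, 5.72-fold lower (-2.52 ± 0.24, adjusted p = 8.05e-08). The highest late library of either population, at 607 CPM, lay below the lowest early library, at 1556 CPM.

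The genes on either side of the synthase step fell by about the same amount in Dutch larvae. The log2 change was -2.35 ± 0.19 for *Desat1*, -2.29 ± 0.18 for *ATPCL*, -2.24 ± 0.17 for *ACC* and -2.12 ± 0.16 for *AcCoAS*. In Zambian larvae it was -1.98 ± 0.17 for *ATPCL*, -1.88 ± 0.17 for *ACC* and -1.76 ± 0.19 for *Desat1*. *AcCoAS* had a log2 change of -1.15 there, to 305 ± 41.8 CPM in late against 678 ± 20.4 CPM in early Zambian larvae. The elongase *Baldspot* changed least among the 6, by -0.95 ± 0.14 in Dutch and -0.98 ± 0.14 in Zambian larvae. In each of these 6 genes every late library lay below every early library of its population, as was the case for 25.1% of all genes in Dutch and 24.7% in Zambian larvae.

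The summed levels of marker genes moved with the stage as well. The 7 fat body genes summed to 261886 to 382973 CPM in late Dutch and 340326 to 441064 CPM in late Zambian larvae, below the early ranges given above. The TMM factors were 0.988 to 1.27 in late against 0.742 to 0.858 in early Dutch larvae, which widens the Dutch fall in CPM. In Zambian larvae the factors overlapped, at 0.877 to 1.08 late and 0.811 to 0.915 early. Among the 7 genes *Fbp1* went the other way. It averaged 112869 CPM in late against 62133 CPM in early Dutch larvae, and 205510 CPM in late against 81763 CPM in early Zambian larvae. For 5 hemocyte markers, the sum was 95.6 to 141 CPM in late against 196 to 214 CPM in early Dutch larvae, and 76.6 to 101 CPM in late against 170 to 211 CPM in early Zambian larvae. For 4 muscle markers it was 87.1 to 187 CPM in late against 184 to 211 CPM in early Dutch larvae, and 39.0 to 60.1 CPM in late against 149.6 to 204 CPM in early Zambian larvae. For 4 neuronal markers it was 316 to 367 CPM in late against 259.8 to 306 CPM in early Dutch larvae, and 526 to 553 CPM in late against 291 to 361 CPM in early Zambian larvae. The late sums of the populations thus did not overlap. The single neuronal genes did not all follow the sum: their median log2 difference at the late stage was 0.38, higher in the Dutch population. None of these marker genes was at 0 in all libraries of a group. The part of the make-up of the samples in the changes of the 6 genes was not tested.

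**Figure D4:**
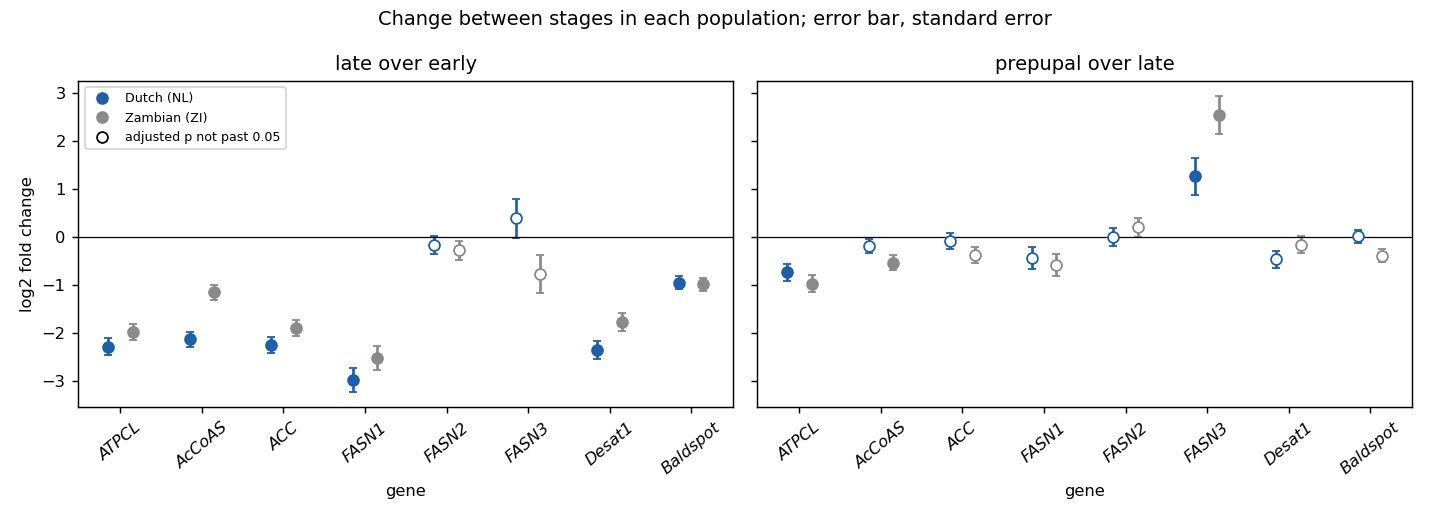
Log2 fold change of late over early larvae (left) and of prepupae over late larvae (right) for each gene, with standard errors (blue, Dutch; grey, Zambian); open points did not pass an adjusted p of 0.05. The left panel has 6 genes with filled points below 0 in both populations, and the right panel shows *FASN3* as the one gene with filled points above 0.

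Few members moved between the late stage and the prepupa. In the Dutch population 1 of 8 rose and 1 fell (7.68% and 7.45% of all genes), and in the Zambian population 1 rose and 2 fell (3.62% and 8.69%). *ATPCL* fell further in both, with log2 changes of -0.73 in the Dutch (adjusted p = 0.00442) and -0.97 in the Zambian population (adjusted p = 0.000619). *AcCoAS* fell in the Zambian population, with a change of -0.53 (adjusted p = 0.0251), with a mean of 211 ± 7.78 CPM in prepupae against 305 ± 41.8 CPM in late larvae, and this call was lost without Zambian late replicate 2 (-0.44, adjusted p = 0.151). *ACC* was at 117 ± 15.8 CPM in Dutch prepupae and at 124 ± 20.9 CPM in late Dutch larvae, a change of -0.08 ± 0.16 that did not pass.

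*FASN3* was the one member that rose. In Zambian animals it had 44.8, 21.0 and 26.6 CPM in prepupae, against 6.82, 3.68 and 5.24 CPM in late larvae, 5.85-fold higher (2.55 ± 0.39, adjusted p = 0.000173). In Dutch animals it had 15.7, 16.1 and 16.6 CPM in prepupae, against 7.03, 9.79 and 3.08 CPM in late larvae (1.27 ± 0.39, adjusted p = 0.0282). No late library reached the prepupal level in either population, as for 13.5% of all genes in Dutch and 12.5% in Zambian animals. The Dutch call did not hold in every fit, and without Dutch late replicate 3, the lowest of that group, the change was 0.93 (adjusted p = 0.11).

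Over the whole interval, from early larvae to prepupae, the same 6 genes were lower and *FASN3* was higher in both populations, where 26.1% of all genes were called lower and 19.4% higher in the Dutch and 23.1% and 18% in the Zambian population. *FASN1* was 10.71-fold lower in Dutch prepupae than in early Dutch larvae and 8.57-fold lower in Zambian ones, and *ATPCL* 8.11-fold and 7.68-fold. *FASN3* was 3.18-fold higher in Dutch and 3.43-fold higher in Zambian prepupae. *FASN2* had 34.9 ± 2.08 CPM in Dutch prepupae against 39.0 ± 6.38 CPM in early Dutch larvae, and 13.2 ± 3.90 CPM in Zambian prepupae against 13.7 ± 2.02 CPM in early Zambian larvae. These comparisons share libraries with those between neighbouring stages.

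The make-up of the synthase transcripts changed with the stage. *FASN1* held 98.6 to 98.8% of the summed TPM of the 3 synthase genes in early Dutch libraries and 98.0 to 99.0% in early Zambian libraries. In prepupae its share was 83.9 to 87.7% in Dutch and 78.0 to 82.1% in Zambian libraries. *FASN3* took 4.13 to 5.33% in Dutch and 11.7 to 15.2% in Zambian prepupae, and *FASN2* 8.16 to 10.7% in Dutch and 2.74 to 8.35% in Zambian prepupae. The ratio of *ATPCL* to *AcCoAS* in TPM separated the populations at each stage: it was 0.564 to 0.738 in Dutch and 0.482 to 0.492 in Zambian early libraries, 0.552 to 0.592 in Dutch and 0.263 to 0.287 in Zambian late libraries, and 0.364 to 0.406 in Dutch and 0.189 to 0.230 in Zambian prepupae. The ratio of *Desat1* to *Baldspot* was 7.74 to 8.74 in Dutch and 8.44 to 9.96 in Zambian early libraries but 1.84 to 2.66 in Dutch and 5.74 to 6.68 in Zambian prepupae. Other ratios did not separate the populations. That of *FASN1* to *ATPCL* and that of *FASN1* to *ACC* overlapped at each stage. In prepupae *FASN1* to *ACC* was 2.63 to 2.73 in Dutch and 2.53 to 4.44 in Zambian libraries. The share of all gene pairs whose ratio separates the populations was not taken.

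Whether a change between stages differed between the populations was tested in the same fit, as the Dutch change minus the Zambian change. From the early to the late stage 1 of 8 members was called, against a background of 7.87% of all genes. That background of 980 genes was unstable, with 199 genes without Dutch early replicate 2 and 2689 without Dutch early replicate 3. The member called was *AcCoAS*, which fell by 2.12 in Dutch larvae and fell by 1.15 in Zambian larvae on the log2 scale, a difference of -0.97 ± 0.22 (adjusted p = 0.0157). On the TPM scale, where the difference was not tested, it averaged 117 in late against 363 in early Dutch larvae and 124 against 261 in Zambian larvae. The call was lost without Dutch late replicate 2 (adjusted p = 0.0515) and without Zambian late replicate 2 (adjusted p = 0.0505), with the direction kept, and it was also lost when the median level of the chemosensory receptor genes was a covariate (-0.71, adjusted p = 0.15). Those genes differed between the populations at the late stage, as given above. The fit with the covariate thus cannot separate their part in the difference, which was not tested. *FASN3* had a larger difference of the other sign and a wide error (1.17 ± 0.56, adjusted p = 0.148), and *Desat1* had -0.59 ± 0.26 (adjusted p = 0.116). *FASN1*, *ATPCL* and *ACC* had differences of -0.47 ± 0.33, -0.31 ± 0.24 and -0.36 ± 0.23, and *FASN2* and *Baldspot* of 0.11 ± 0.27 and 0.04 ± 0.20. None of these 7 passed.

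From the early larva to the prepupa no member was called, where 1.48% of all genes were (184 genes, and 103 without Dutch prepupal replicate 1 to 326 without Dutch late replicate 1). *Desat1* fell by 2.81 in Dutch animals and fell by 1.91 in Zambian animals on the log2 scale, a difference of -0.89 ± 0.26 (adjusted p = 0.104), and it passed with DESeq2 (-0.91, adjusted p = 0.0347). *AcCoAS* had a difference of -0.62 ± 0.21 (adjusted p = 0.216). Between the late stage and the prepupa edgeR called none of the 12460 genes, 2309 of which had an unadjusted p under 0.05, while DESeq2 called 178. *FASN3* had the widest interval among the members, with a difference of -1.28 ± 0.54 there (adjusted p = 0.228).

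The members were set beside other genes of the pathway, in lists chosen with earlier results of these data known. Of 9 genes that supply NADPH and citrate, 4 were higher in early Dutch larvae and none lower, where 4.53% of all genes were called higher and 3% lower, with a median log2 difference of 0.38 against 0.03 for all genes. They were *Idh*, a source of NADPH, at 963 ± 39.8 CPM in Dutch and 421 ± 29.4 CPM in Zambian larvae (1.19 ± 0.22, adjusted p = 0.00103), *Mpc1*, for the mitochondrial pyruvate carrier (0.96 ± 0.16), *Men*, for malic enzyme (0.79 ± 0.24), and *kdn*, for citrate synthase (0.55 ± 0.14). The call of *Men* was close to the threshold (adjusted p = 0.0495). *Mpc1* was also called in late larvae (0.74 ± 0.17) and prepupae (1.01 ± 0.17), with 15 ± 2.29 CPM in Dutch and 7.40 ± 0.509 CPM in Zambian prepupae. In late larvae *Men-b*, a second malic enzyme gene, was also higher (0.59 ± 0.20) and *kdn* was lower (-0.48 ± 0.14).

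From the early to the late stage 8 of the 9 genes fell in Dutch and 7 of 9 in Zambian larvae, with none higher. Among all genes 23.2% were called lower and 18.4% higher in Dutch larvae, and 17% lower and 18.7% higher in Zambian larvae, and these shares are the background for the lists that follow too. The median log2 change of the list was -1.24 in Dutch and -0.89 in Zambian larvae. *PCB*, for pyruvate carboxylase, had 905 ± 352 CPM in late against 1906 ± 126 CPM in early Dutch larvae, and 789 ± 176 CPM in late against 1466 ± 128 CPM in early Zambian larvae. *Pgd* and *Zw*, the NADPH-producing enzymes of the pentose phosphate pathway, were picked after their values were seen. *Pgd* changed by -2.88 in Dutch and by -2.30 in Zambian larvae on the log2 scale, and *Zw* changed by -1.87 in Dutch and by -1.69 in Zambian larvae.

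The other elongase and desaturase genes had counts of calls to be read against the background, which was 13.7% higher and 14.1% lower at the late stage, and 2.66% higher and 2.09% lower in prepupae. Of 19 further elongase genes 9 passed the filter on counts. Of these 9, none was higher and 1 lower in early Dutch larvae, 1 higher and 1 lower at the late stage, and 1 higher in Dutch prepupae. *CG2781* was the lower one in early larvae, with 0.888 ± 0.103 CPM in Dutch and 2.14 ± 0.484 CPM in Zambian libraries (-1.26 ± 0.26, adjusted p = 0.00316). From the early to the late stage 3 of the 9 rose in Dutch larvae, with none lower, and 3 rose and 1 fell in Zambian larvae, among them *CG31522*, by 1.06 and 1.41, opposite to *Baldspot*. Of 7 further desaturase genes none was called between the populations in early larvae or prepupae. In late larvae *CG15531* (0.95 ± 0.32) and *CG8630* (0.82 ± 0.29) were higher in the Dutch population, both below 2 CPM on average at that stage. From the early to the late stage 1 of the 7 fell in Dutch and 3 of 7 in Zambian larvae, with none higher. The sphingolipid desaturase gene *ifc* fell in both populations, with log2 changes of -0.84 in Dutch and -0.51 in Zambian larvae.

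The genes that activate or carry fatty acids were mixed. Of 6, none was called in early larvae. At the late stage *bgm*, for a very long chain acyl-CoA synthetase, was higher in the Dutch population (27.7 ± 11.5 CPM in Dutch and 9.12 ± 0.741 CPM in Zambian larvae, 1.6 ± 0.21, adjusted p = 3.25e-05), and *Acbp1* (-0.57 ± 0.15) and *Fatp1* (-0.52 ± 0.14) were lower. In prepupae *bgm* remained higher (1.35 ± 0.22) and *Fatp1* lower (-0.67 ± 0.14). With the late stage set against the early one, 3 of the 6 fell and 1 rose in each population. *hll*, another acyl-CoA synthetase gene, rose by 0.57 in Dutch larvae from the early to the late stage. In Zambian larvae it had 632 ± 111 CPM late against 697 ± 143 CPM early. From late larvae to prepupae *hll* changed by -1.26 in Dutch and -1.33 in Zambian animals.

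Of 11 regulators of lipogenesis, none was called between the populations in early or late larvae, and 1 was lower in Dutch prepupae, *S2P*, for a protease that releases SREBP (-0.54 ± 0.15, adjusted p = 0.0351). Between early and late larvae 1 of the 11 rose and 5 fell in the Dutch population, and 3 rose and 4 fell in the Zambian one. *Mondo*, for a sugar-responsive transcription factor, had 103 ± 2.32 CPM in late against 194 ± 24.5 CPM in early Dutch larvae (-0.91 ± 0.13) and 112 ± 15.6 CPM in late against 156 ± 7.10 CPM in early Zambian larvae (-0.48 ± 0.13). *SREBP*, the transcription factor that controls lipogenic genes, was picked after its values were seen and changed by -1.0 in Dutch and by -0.59 in Zambian larvae between these stages. Its early difference between the populations was 0.47 and was not called. Of 4 genes of mitochondrial fatty acid synthesis, *CG16935* was higher in the Dutch population among early (0.83 ± 0.17) and late larvae (0.49 ± 0.17). All 4 fell in Dutch and 3 of 4 in Zambian larvae from the early to the late stage, for example *ND-ACP*, for the acyl carrier protein, with log2 changes of -1.24 and -0.78.

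**Figure D5:**
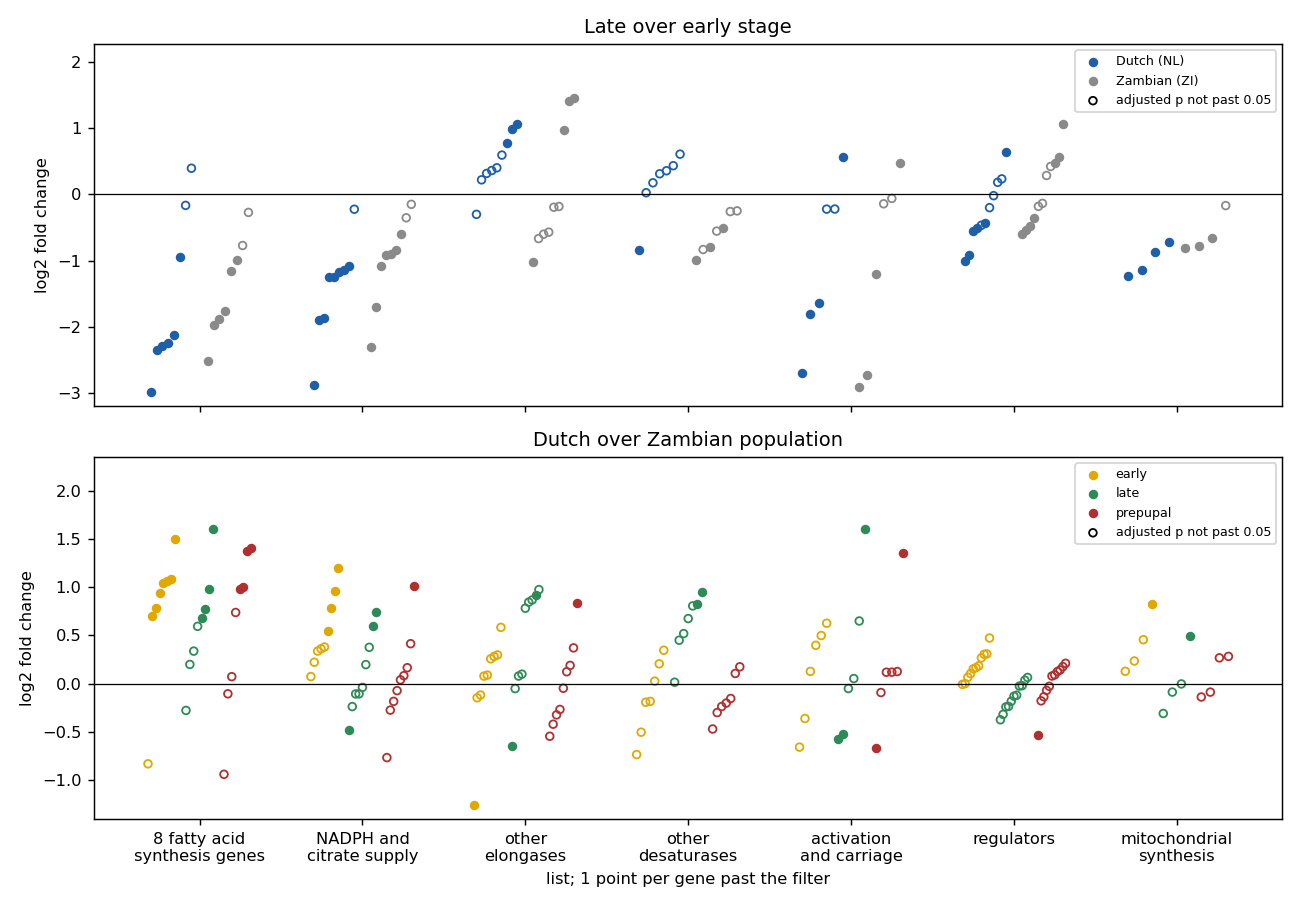
Log2 fold change of each gene past the count filter, by list, for late over early larvae (top; blue, Dutch; grey, Zambian) and for the Dutch over the Zambian population at the early (yellow), late (green) and prepupal (red) stage (bottom); open points did not pass an adjusted p of 0.05. The 8 fatty acid synthesis genes and the list of NADPH and citrate supply hold the most filled points below 0 in the top panel.

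The last description asked which genes had the pattern most like each member over the 18 libraries, measured as the root mean square difference of log2 CPM after each gene was centred on its own mean, among 4545 genes of at least 10 CPM. *Agpat2*, for an acyltransferase of glycerolipid synthesis, was nearest to both *ATPCL* (0.21) and *ACC* (0.26). *AcCoAS* was nearest to the tRNA synthetase genes *SerRS* (0.16) and *AlaRS* (0.19), *FASN1* to *CG13360* (0.24) and *Ldsdh1* (0.30), and *Desat1* to *CG34348* (0.17) and *Pgi* (0.20). *Baldspot* was nearest to *CG33090* (0.20) and *NT5E-2* (0.22). *FASN2* was nearest to the noncoding RNA gene *flam* (0.23), listed as lncRNA:flam, and then to *Pif1B* (0.38). *FASN3* had no close neighbour, the nearest being *CG34376* at 0.69 and *CG7627* at 0.71.

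Among the members the closest pairs were *AcCoAS* and *Desat1* (0.26), *ATPCL* and *FASN1* (0.32) and *ATPCL* and *ACC* (0.35). *FASN2* lay nearest to *Baldspot* (0.55). *FASN3* lay 1.48 from its nearest member, *FASN2*. For comparison, the root mean square spread of a member around its own mean was 0.76 for *Baldspot*, the smallest, and 1.52 for *FASN1*, the largest. These distances are a description and share the libraries on which all comparisons rest.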

How the data were processed

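Paired-end reads of RNA depleted of ribosomal sequence were mapped by the authors with NextGenMap to FlyBase transcripts (release 6.21). They dropped pairs with mates on different genes or transcripts and summed transcripts per gene. The authors deposited the raw counts, with a gene length, and without normalization or a filter. Depth is the column total. Gene names and positions came from the Ensembl annotation of BDGP6: 16342 genes matched by gene ID, 76 matched by annotation number, and 20 without a match are named by that number.

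Genes that averaged at least 15 counts over 18 libraries, the filter of the study, were fitted with 1 mean per population and stage. Tests were quasi-likelihood F-tests in edgeR 4.0.16 (R 4.3.3, TMM scaling), with Benjamini-Hochberg adjustment over all 12460 genes and calls at 0.05. A standard error is the size of a log2 fold change divided by the root of its F value. CPM values were scaled by TMM, log2 CPM had a prior count of 2, and TPM used the length in the table over all its genes. The fit for the Dutch over the Zambian population in early larvae was tried on counts simulated from the fitted model. The other comparisons were not simulated. Alternatives were DESeq2 1.42.0, other scalings and filters, the compared groups alone, a replicate block, a chemosensory covariate and leaving out each library.

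The members, lists, covariate and naming rule were chosen with earlier results of these data known. Besides the members, the text names up to 3 called genes of each list per population comparison by absolute log2 fold change, the gene of each list with the highest mean TPM, and the 2 genes nearest to each member. *Pgd*, *Zw* and *SREBP* lie outside this rule and were picked after their values were seen. Python 3.11.15 with numpy 2.4.6, pandas 2.3.3 and matplotlib 3.10.9 made the summaries and figures.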

Additional observations from a re-analysis of the deposited data

Results flagged for a closer look

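The change between stages differed between the populations, by the test of that difference, for 1 of the 8 fatty acid synthesis genes and for 7 genes of the other pathway lists. Of 46 genes tested in those lists, 5 were called from the early to the late stage (10.9%, against 7.87% of all genes) and 2 from the early larva to the prepupa (4.35%, against 1.48%). Values are Dutch minus Zambian log2 changes from edgeR. From the early to the late stage *AcCoAS* had -0.97 ± 0.22 (adjusted p = 0.0157), lost without Dutch late replicate 2 or Zambian late replicate 2, as given above.

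In the same interval *kdn* had -1.03 ± 0.20 (adjusted p = 0.00742), with 9.58 ± 0.609 CPM in late against 21.7 ± 1.05 CPM in early Dutch larvae and 13.4 ± 0.484 CPM in late against 14.8 ± 2.94 CPM in early Zambian larvae. The elongase gene *CG31523* had -1.23 ± 0.28 (adjusted p = 0.0169), rising by 1.45 in Zambian larvae and changing by 0.22 in Dutch larvae, which did not pass. *CG2781* had 1.34 ± 0.36 (adjusted p = 0.0338), *bgm* 1.10 ± 0.29 (adjusted p = 0.0314) and *Acbp1* -0.70 ± 0.21 (adjusted p = 0.0475). From the early larva to the prepupa *Men* had -1.55 ± 0.34 (adjusted p = 0.0197), with 370 ± 85.7 CPM in Dutch prepupae against 826 ± 114 CPM in early Dutch larvae and 629.8 ± 10.1 CPM in Zambian prepupae against 479 ± 83.8 CPM in early Zambian larvae. *S2P* had -0.84 ± 0.21 (adjusted p = 0.0436).

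Each of these 7 calls was lost in at least 1 other fit, that of *Acbp1* in 19 fits, where it lay between -0.76 and -0.27.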

How the results depend on the processing

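Under 9 other settings and without each of 18 libraries, no member or named gene of the lists reversed a called direction: of 9336 refitted values 8877 kept their side of the threshold, 263 lost it and 196 gained it. The number of members called stayed at 7 (Dutch over Zambian, early), at 6 and 6 (late over early, Dutch and Zambian) and at 7 and 7 (prepupal over early). It was 4 to 6 at the late and prepupal stages between the populations. Between late larvae and prepupae in the Dutch population it was 1 to 3 over fits without 1 library, with *FASN3* the gene most often lost. For the difference in change from early to late it was 0 with the chemosensory covariate and 0 to 2 without 1 library. From early to prepupal it was 1 with DESeq2, upper-quartile scaling, a filter of 100 counts, the compared groups alone or the chemosensory covariate, in each case *Desat1*, and 0 to 2 without 1 library. The cause was not tested.

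Among all genes, calls between the populations at the late stage were 3461, and 869 with the chemosensory covariate, 1658 with the compared groups alone and 1936 with a filter of 100 counts, with 1771 to 4114 without 1 library. Early calls were 938, and 2076 with the covariate. Prepupal calls were 592, and 540 to 1017 under other settings and 377 (without Dutch prepupal replicate 1) to 830 without 1 library. Zambian calls for prepupal over late were 1534, and 794 without Zambian late replicate 2, 889 without Zambian prepupal replicate 2 and 936 without Zambian prepupal replicate 3. Scaling from well-expressed genes shifted the median of all genes at the late stage by 0.24 and gave 2739 higher and 774 lower calls. For late over early in the Dutch population upper-quartile scaling gave 3717 higher and 2368 lower calls, against 2290 and 2890. Calls of the difference in change were 980 from early to late, and 102 to 1610 under other settings and 199 to 2689 without 1 library. From early to prepupal they were 184, and 162 to 290 under other settings and 103 to 326 without 1 library.

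The labels do not say that replicate numbers pair libraries, and in none of the 9 comparisons did deviations of all 3 same-numbered pairs correlate above 0.1. These correlations lay between -0.39 and 0.43, and they were highest as a set for prepupal over early in the Dutch population (0.09, 0.26 and 0.42). With the replicate block, prepupal *FASN1* was called between the populations (0.76, adjusted p = 0.0458), as was *Baldspot* for prepupal over late in the Zambian population (-0.38, adjusted p = 0.0428).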
